A study of Mus musculus with 16 samples.

Results

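The Runx genes encode transcription factors that bind DNA through a shared Runt domain, and Cbfb encodes the partner that has no DNA contact of its own and strengthens their binding. The family was taken as every array probe set whose platform gene symbol is Runx1, Runx2, Runx3 or Cbfb, each probe set kept apart. This gave 9 of the 45037 tested probe sets, for 3 of 18193 genes: Runx1 with 6, Runx3 with 2 and Cbfb with 1. No probe set carried the symbol Runx2 in the platform table, so Runx2 was not analysed here. The family was selected on the signals of these same arrays, with the values of all 4 groups and of the replicate numbers in view. The differences below are therefore descriptions, and the p-values of the fit across all probe sets give only their place in that table.

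The femurs were those of female C57BL/6 mice whose ovaries had been removed, and RNA was taken from the last 5 mm of the left bone at its distal end, with 1 mouse per array and 4 mice per group. The groups were ERaKO mice, which lack estrogen receptor alpha in osteoclasts, 4 hours after estrogen (ERaKO E2); ERaKO mice without estrogen (ERaKO OVX); wild-type mice 4 hours after estrogen (WT E2); and wild-type mice given vehicle (WT OVX). All 16 mice were ovariectomized, and mice are numbered below by the replicate number in their labels. The series' design text gives vehicle as the treatment of the ERaKO OVX mice, whose own labels name none. The sources used here do not give the driver of the deletion, the age of the mice, or which estrogen was given and how much. The sample was whole bone end with marrow, so fewer cells of a type and less RNA per cell cannot be told apart.

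Runx1 is required for the first blood stem cells and acts in myeloid cells, lymphocytes and megakaryocytes. Runx2 is the factor that osteoblasts and maturing cartilage cells require. Runx3 acts in CD8 T cells, NK cells and other leukocytes, and in some neurons and epithelia. Runx1 and Runx3 are each transcribed from a distal and a proximal promoter, which give proteins that differ at the amino end.

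The median signal ran from 153 to 217 over the 16 arrays, whose number sets the precision. Mice 1 and 2 of every group differed from mice 3 and 4 in tissue markers: all 14 skeletal muscle genes were lower in mice 3 and 4, with a median log2 difference of −4.18, and all 14 osteoclast genes were higher there, by 0.80. Summed muscle signals were 4384 to 42379 in mice 3 and 4, against 98764 to 790211 in mice 1 and 2. Summed osteoclast signals were 52123 to 77407 in mice 3 and 4, against 27939 to 49395 in mice 1 and 2. ERaKO E2 replicate 1, WT E2 replicate 2 and WT OVX replicate 2 had mean bacterial spike-in signals of 33096 to 59091, against 9350 to 17130 on the other 13 arrays, and differences with those 3 left out are given for Runx3, Cbfb and Runx1. The targeted gene, Esr1, had log2 differences, ERaKO minus WT, of −0.35 to 0.07 after estrogen on its 3 probe sets (adjusted p = 1 for each, limma) and of −0.85 to −0.48 under vehicle (adjusted p = 0.993 for each). After estrogen 1 of the 3 was not lower in ERaKO. These probe sets need not cover the deleted exons, and the deletion is in osteoclasts alone, so they are a weak check of the labels.

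Every difference is on the log2(signal + 16) scale, with its standard error from limma over all 16 arrays, and p-values were adjusted by the Benjamini-Hochberg method over all 45037 probe sets with a threshold of 0.05. By this test 0 probe sets (0%) passed in any single comparison of 2 groups, in the difference between the estrogen responses or in the average genotype difference, and so none of the 9 of the Runx family did. At an unadjusted p under 0.05, 0 of the 9 were called for estrogen in WT, against 6.14% of all probe sets. In ERaKO the same count for estrogen was 1 of 9, against 3.73%. For ERaKO against WT it was 1 of 9 under vehicle, against 3.58%, and 1 of 9 after estrogen, against 4.92%. The difference between the responses had 1 of 9, against 5.34%, and the average genotype difference 2 of 9, against 3.24%. The family was chosen with these contrasts in view, so nothing is read from these shares.

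Runx3 probe set 1421467_at, for which the platform table lists the RefSeq transcript, was low in every ERaKO femur after estrogen. Its signal was 45.8, 31.0, 76.5 and 86.4 in ERaKO E2 mice 1 to 4, against 222.8, 201.9, 469.6 and 384.6 in ERaKO OVX mice. In wild type it was 374.9, 360.1, 166.7 and 469.5 in WT E2 mice, against 155.6, 220.1, 313.6 and 227.2 in WT OVX mice. The 4 ERaKO E2 arrays lay below the other 12, which overlapped among themselves; this was so for 16 probe sets of the table (0.0355%), by a count made after the values were seen. Group means were 59.9 ± 25.9 in ERaKO E2 and 319.7 ± 129.0 in ERaKO OVX femurs, and 342.8 ± 127.0 in WT E2 and 229.1 ± 64.9 in WT OVX femurs (SD, n = 4 each). The ERaKO E2 signals stood at percentiles 15.7 to 35.3 of their arrays, and since detection calls were not used, whether they exceed background is not known.

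The estrogen difference of this probe set in ERaKO was −2.13 ± 0.36, a level 4.4-fold lower after estrogen on this scale (95% interval −2.89 to −1.37, adjusted p = 0.349). In WT it was 0.50 ± 0.36 (−0.26 to 1.26, adjusted p = 0.908). The difference between the responses, ERaKO minus WT, was −2.63 ± 0.51 (−3.71 to −1.56, adjusted p = 0.927). ERaKO minus WT was −2.22 ± 0.36 after estrogen (−2.98 to −1.46, adjusted p = 0.178) and 0.41 ± 0.36 under vehicle (−0.35 to 1.17, adjusted p = 0.993). Its unadjusted p was the smallest of all probe sets after estrogen and had rank 2 for estrogen in ERaKO and for the difference between responses. These 3 contrasts share the ERaKO E2 arrays and are not separate evidence. The average genotype difference was −0.91 ± 0.26 (adjusted p = 1).

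The low level was seen in both pairs of mice. Within mice 1 and 2 the estrogen difference in ERaKO was −2.08, and within mice 3 and 4 it was −2.18. The difference between responses was −3.01 in mice 1 and 2 and −2.25 in mice 3 and 4. With the 3 arrays of high spike-in signal left out, the estrogen difference in ERaKO was −2.05 ± 0.41 and the difference between responses was −2.50 ± 0.60. Over 27 alternatives the estrogen difference in ERaKO ran from −2.42 to −1.59 and its adjusted p from 0.0801 to 1, and the difference between responses ran from −3.01 to −2.03.

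The other Runx3 probe set, 1440275_at, for which the table lists an expressed sequence tag, had another pattern. Its signal was 245.2, 406.2, 373.3 and 331.3 in ERaKO E2 mice, against 434.0, 303.9, 432.0 and 353.9 in ERaKO OVX mice. It was 436.1, 402.9, 424.4 and 498.7 in WT E2 mice, against 320.2, 323.0, 338.7 and 378.2 in WT OVX mice. All 4 WT E2 values lay above all 4 WT OVX values, while the ERaKO groups overlapped. Group means were 339.0 ± 69.6 in ERaKO E2 and 380.9 ± 63.5 in ERaKO OVX femurs, and 440.5 ± 41.2 in WT E2 and 340.0 ± 26.7 in WT OVX femurs (SD, n = 4 each).

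On 1440275_at the estrogen difference was −0.17 ± 0.19 in ERaKO (95% interval −0.56 to 0.22, adjusted p = 1) and 0.36 ± 0.19 in WT (−0.04 to 0.75, adjusted p = 0.831). The difference between responses was −0.53 ± 0.26 (adjusted p = 0.93) and ERaKO minus WT after estrogen was −0.38 ± 0.19 (adjusted p = 1). The value in ERaKO rested in part on ERaKO E2 replicate 1, the lowest of its group. Without it the estrogen difference in ERaKO was −0.03, ERaKO minus WT after estrogen was −0.24 and the difference between responses was −0.39. Other arrays moved them the other way. Without ERaKO OVX replicate 2 the estrogen difference in ERaKO was −0.27 and the difference between responses was −0.63. ERaKO minus WT after estrogen was −0.47 without ERaKO E2 replicate 2. With the 3 high spike-in arrays left out, the estrogen difference in ERaKO was −0.03 ± 0.17. ERaKO minus WT after estrogen was then −0.28 ± 0.19, and the difference between responses was −0.40 ± 0.26. In ERaKO the intervals of the estrogen difference over all arrays did not overlap between the 2 probe sets, so Runx3 as a gene has no single value here. Within the 8 arrays of mice 1 and 2 the log2 values of the 2 probe sets correlated with r = 0.42, and within the 8 arrays of mice 3 and 4 with r = 0.48. Tissue makeup also varied within each set of arrays, as the range of the summed muscle signals above shows, and r is given as a description.

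**Figure D1:**
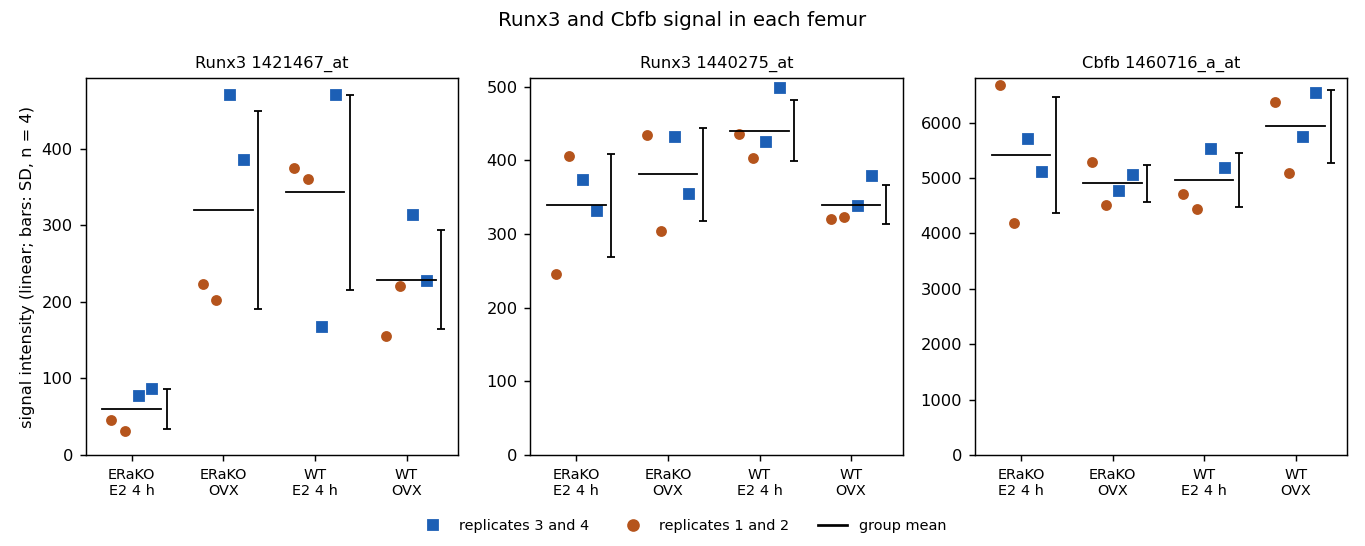
Linear signal intensity of the Runx3 and Cbfb probe sets in each femur (points), with the group mean (line) and SD (bar beside it, n = 4); squares are mice 3 and 4, circles mice 1 and 2. On Runx3 1421467_at the 4 ERaKO E2 values, 31.0 to 86.4, lie below the other 12. On Runx3 1440275_at ERaKO E2 replicate 1, at 245.2, is the lowest array, and the rest of its group lies among the other groups. On Cbfb the ERaKO E2 group holds both the lowest value, 4190.6, and the highest, 6673.9.

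Counting probe sets whose arrays did not overlap between 2 groups gave 1 of 9 for estrogen in ERaKO (Runx3 1421467_at, lower; 3.50% of all probe sets in either direction). For estrogen in WT it was 1 of 9 (Runx3 1440275_at, higher; 3.13%). For ERaKO against WT it was 1 of 9 after estrogen (Runx3 1421467_at, lower; 2.09%) and 0 of 9 under vehicle (3.20%).

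Cbfb probe set 1460716_a_at had a narrow spread and no separated group. Its signal was 6673.9, 4190.6, 5704.5 and 5110.8 in ERaKO E2 mice, against 5288.0, 4510.5, 4773.3 and 5051.6 in ERaKO OVX mice. It was 4708.5, 4446.4, 5525.3 and 5187.2 in WT E2 mice, against 6369.2, 5089.7, 5745.0 and 6533.8 in WT OVX mice. The coefficient of variation within a group was 6.87% to 19.2%. The estrogen difference was 0.13 ± 0.16 in ERaKO (95% interval −0.20 to 0.45, adjusted p = 1) and −0.25 ± 0.16 in WT (−0.58 to 0.07, adjusted p = 0.874). The difference between responses was 0.38 ± 0.22 (−0.08 to 0.84, adjusted p = 0.93). ERaKO minus WT was 0.11 ± 0.16 after estrogen and −0.27 ± 0.16 under vehicle. With the 3 high spike-in arrays left out, the estrogen difference was 0.02 ± 0.14 in ERaKO and −0.27 ± 0.14 in WT, and the difference between responses was 0.29 ± 0.20. The intervals of the estrogen difference reach 0.45 in ERaKO and −0.58 in WT, so they do not show that Cbfb stayed the same.

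Runx1 had 6 probe sets, and in each the groups overlapped in every comparison. Estrogen differences ran from −0.31 to 0.29 in ERaKO and from −0.47 to −0.02 in WT, all below 0 in WT, with standard errors of 0.27 to 0.64. With the 3 high spike-in arrays left out, 5 remained below 0 in WT, at −0.60 to −0.11, and 1452530_a_at was 0.11 ± 0.43 in WT and 0.61 ± 0.41 in ERaKO. Probe set 1427650_a_at spanned 20.0 to 215.3 over the arrays, with coefficients of variation of 59.6% to 83.7% within groups. The 15 pairs of Runx1 probe sets had correlations of −0.60 to 0.69 (median 0.20) over mice 1 and 2 and −0.71 to 0.81 (median 0.20) over mice 3 and 4, 8 arrays each, and 5 pairs were above 0 in both. The probe sets thus gave no single Runx1 value.

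The Runx1 probe set with the largest genotype difference was 1452530_a_at. Its signal was 70.7, 339.8, 314.3 and 160.2 in ERaKO E2 mice, against 227.7, 468.9, 253.7 and 465.0 in WT E2 mice. It was 112.3, 182.7, 90.0 and 372.4 in ERaKO OVX mice, against 238.0, 632.3, 309.1 and 289.4 in WT OVX mice. ERaKO values were the lower ones on average, with overlap under both treatments. ERaKO minus WT was −0.77 ± 0.47 after estrogen (adjusted p = 1) and −0.99 ± 0.47 under vehicle (adjusted p = 0.993), and the average was −0.88 ± 0.33 (adjusted p = 1). These values rested in part on single arrays: the difference after estrogen was −0.36 without ERaKO E2 replicate 1, and that under vehicle was −0.70 without WT OVX replicate 2. Other arrays moved them the other way, to −1.04 after estrogen without ERaKO E2 replicate 2 and to −1.36 under vehicle without ERaKO OVX replicate 4. With all 3 high spike-in arrays left out, ERaKO minus WT was −0.20 ± 0.43 after estrogen, −0.70 ± 0.41 under vehicle and −0.45 ± 0.30 on average (adjusted p = 1 for each). Over all arrays, the other 5 Runx1 probe sets had average genotype differences of −0.19 to 0.15.

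**Figure D2:**
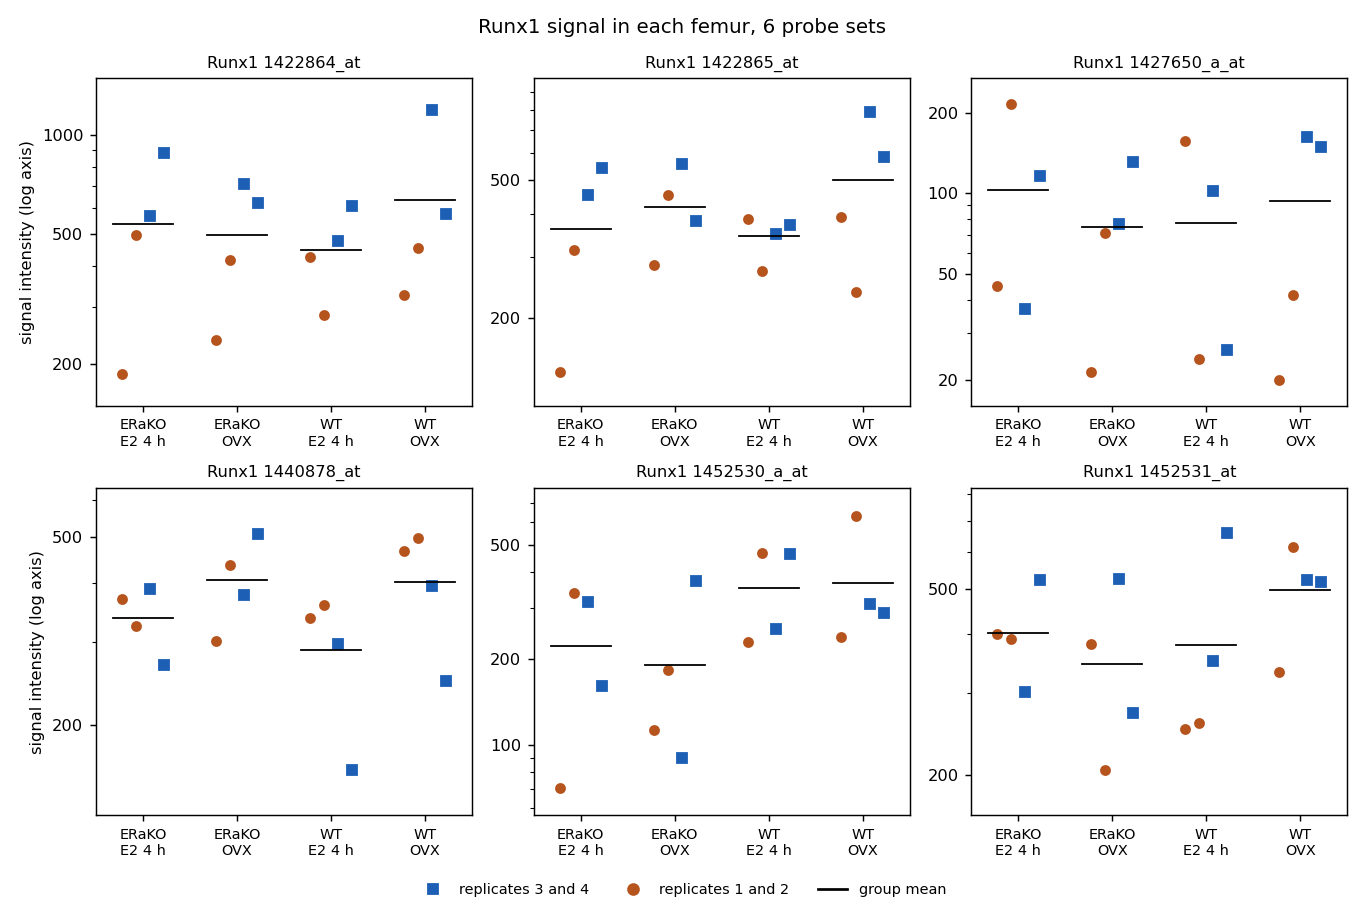
Signal intensity of the 6 Runx1 probe sets in each femur, on a log axis whose range differs between panels; lines are group means, squares mice 3 and 4, circles mice 1 and 2. The groups overlap in every panel, and on 1422864_at the squares of each group lie above its circles.

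**Figure D3:**
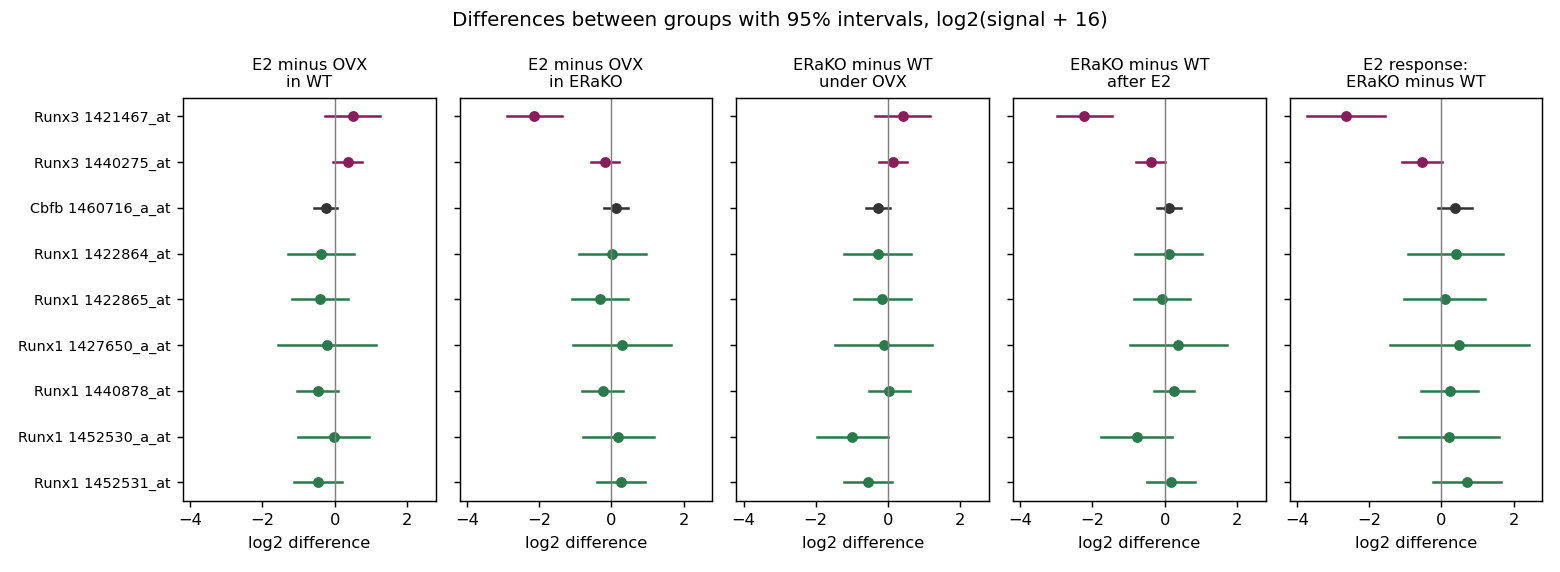
Log2 differences of the 9 probe sets (points) with 95% intervals (lines) for 5 comparisons, each panel titled with its direction. The intervals of Runx3 1421467_at exclude 0 for estrogen in ERaKO, for ERaKO against WT after estrogen and for the difference between responses, and that of Runx1 1452530_a_at does so under vehicle (−1.97 to −0.01, with WT OVX replicate 2 included); none of these passed the adjusted threshold.

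Of the 9 probe sets, Runx1 1422864_at had the largest average difference between the replicate numbers. Its signal was 473.7 to 1189.7 (median 614.0) in mice 3 and 4, against 186.9 to 496.5 (median 370.1) in mice 1 and 2. The sets overlapped, and within each group the pair 3 and 4 lay above the pair 1 and 2. The log2 difference averaged over the groups was 0.97, from 0.61 in WT E2 to 1.17 in ERaKO E2, beside a median of 0.04 over all probe sets. On 1422865_at it averaged 0.70 (0.14 to 1.18 over the groups), while 1440878_at averaged −0.27.

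Of the 9 probe sets, 5 had a higher mean in mice 3 and 4 in all 4 groups (18.0% of all probe sets): Runx1 1422864_at and 1422865_at, Runx1 1452531_at, Runx3 1440275_at and Cbfb. The Runx1 1452531_at difference in ERaKO E2 was 0.00 after rounding. None was lower in all 4 groups (13.0%), and none had 8 arrays apart from the other 8 (2.21%). The average was 0.13 for Runx3 1440275_at, 0.09 for Cbfb and 0.48 for Runx3 1421467_at, which was lower in mice 3 and 4 of WT E2 by a log2 difference of −0.36. The muscle and osteoclast signals above moved with the same replicate numbers, as did the endothelium list, higher for 7 of 8 genes, the B lymphocyte list, lower for 10 of 11, and the cartilage list, higher for 11 of 12 (median 0.51). All 8 adipocyte genes (median −1.07) and all 7 erythroid genes (median −0.37) were lower in mice 3 and 4. So were 8 of 12 neutrophil lineage genes (median −0.35), 5 of 6 megakaryocyte genes (−0.15) and 3 of 5 mast cell and basophil genes (−0.07). Monocyte and macrophage genes were higher for 5 and lower for 4 (median 0.08), and T and NK cell genes higher for 6 and lower for 4 (0.06). Osteoblast and osteocyte genes were higher for 7 and lower for 3 (median 0.28). The part of these cell types in the Runx1 differences was not tested.

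**Figure D4:**
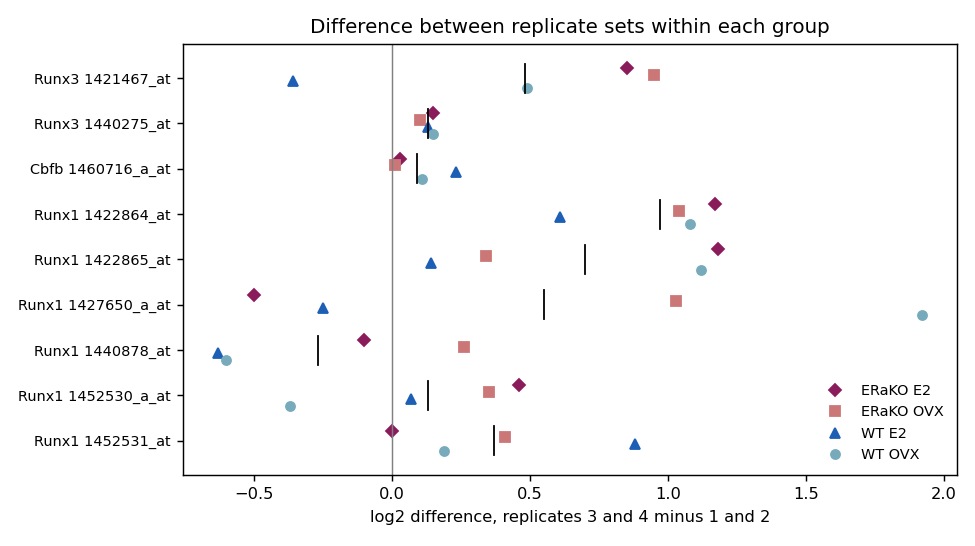
Log2 difference between mice 3 and 4 and mice 1 and 2 within each group (symbols) and its mean over the 4 groups (bar) for each probe set. All 4 groups lie above 0.6 on Runx1 1422864_at, and the groups fall on both sides of 0 on Runx3 1421467_at.

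Both distal start sites carry the family's own core motif, and the stretches are shown because the letters are shared. The RefSeq windows (GRCm38.p6) span 250 bases before to 50 bases after a transcript start, and ACCACA or its reverse complement TGTGGT was found in 16.8% of 32851 windows, and at least 2 times in 1.81%. Runx3 (chromosome 4, 135120645 to 135177990) and Runx1 (chromosome 16, 92601466 to 92826074) each hold it 2 times at the distal start, 2 bases apart. The core repeated after 2 bases of any kind stood in 7 windows (0.0213%), and an unbroken run of 18 shared bases stood in the windows of 4 genes, Runx1, Runx2, Runx3 and Gm16225. Capitals mark the motif, 5′ to 3′ on the strand of the gene. The pair begins 134 bases before the Runx3 start and at base 29 from the Runx1 start, with the start base included in that count.
Runx3, chr4:135120503-135120532, plus strand: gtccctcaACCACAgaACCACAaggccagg
Runx1, chr16:92826025-92826054, minus strand: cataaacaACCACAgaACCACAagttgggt

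The windows at the proximal starts of Runx1 and Runx3 and at the Cbfb start (chromosome 8, gene from 105170674 to 105217989) held 0 matches to this core, and none of the 5 windows held TGCGGT or its reverse complement ACCGCA, found in 6.45% of windows. The palindromic estrogen response element, GGTCA and TGACC with 3 bases of any kind between them, stood in 23 windows (0.07%) and in none of these 5, and its half-site GGTCA or TGACC, found in 40.5%, was in none of them either. These are matches of letters on both strands and say nothing of binding.

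Genes linked to the family were counted by the probe set of highest mean per gene, from lists chosen with earlier results in view. Of 11 measured osteoblast and matrix genes linked to Runx2, 0 passed in any comparison. For estrogen, 9 of 11 were higher in ERaKO (median 0.14) and 5 of 11 in WT (median −0.03), beside medians over all probe sets of 0.02 in ERaKO and −0.02 in WT. Dmp1, an osteocyte matrix protein, had estrogen differences of 0.77 ± 0.20 in ERaKO (adjusted p = 1) and 0.51 ± 0.20 in WT (adjusted p = 0.736). Sp7, a transcription factor of osteoblasts, had −0.70 ± 0.45 in WT, and Tnfrsf11b, the decoy receptor for the osteoclast factor RANKL, had 0.65 ± 0.38 in ERaKO. The osteoblast and osteocyte markers share most of their genes with this list, Sp7, Alpl and Dmp1 among them. Of 10 measured markers, 8 were higher after estrogen in ERaKO (median 0.11) and 4 in WT (median −0.03). The part of these cells in the list's values was not tested.

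Of 15 measured myeloid and megakaryocyte genes linked to Runx1, 0 passed in any comparison. For estrogen, 6 were higher in ERaKO (median −0.03) and 10 in WT (median 0.20). The largest values were −1.01 ± 0.30 for Csf3r, the receptor for granulocyte colony-stimulating factor, in ERaKO and 1.03 ± 0.23 for Csf2rb, a shared cytokine receptor subunit, in WT. Elane, the neutrophil elastase, had 0.97 ± 0.31 in WT. The median difference between responses was −0.55 with 12 of 15 genes below 0, beside 0.03 over all probe sets. Of 12 neutrophil lineage markers, which share Mpo, Elane and Csf3r with this list, 9 were higher after estrogen in ERaKO (median 0.11) and 10 in WT (median 0.27). The median difference between their responses was −0.43, with 8 of 12 below 0, and all 12 were lower in ERaKO than in WT after estrogen (median −0.49). Their summed signal was 265250 to 424229 in ERaKO E2 and 233786 to 348186 in ERaKO OVX femurs, and 287542 to 735123 in WT E2 and 238911 to 651638 in WT OVX femurs. All 12 were above the median signal and 0 were at a signal of 0, and the part of these cells in the list's values was not tested.

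Of 12 lymphocyte genes linked to Runx3, 0 passed in any comparison. For estrogen, all 12 were lower in ERaKO, with a median of −0.30, and 5 of 12 were lower in WT, with a median of 0.03. The largest differences in ERaKO were −0.73 ± 0.63 for Gzmb, a granzyme of killer cells, and −0.52 ± 0.33 for Il2rb, an interleukin receptor chain. In WT they were −1.06 ± 0.49 for Cd4 and 1.00 ± 0.46 for Ifng, which encodes interferon gamma. Under vehicle, 10 of these 12 genes were higher in ERaKO than in WT and 2 were lower (median 0.28). After estrogen, 4 of them were higher in ERaKO than in WT and 8 were lower (median −0.08). The markers of T and NK cells share Cd8a, Cd4 and Prf1 with this list. Of 10 such markers, 9 were lower after estrogen in ERaKO (median −0.26) and 6 were lower in WT (median −0.12). For ERaKO against WT after estrogen, 5 were lower and 5 higher (median −0.06). Their summed signal was 2261 to 4715 in ERaKO E2 and 3741 to 4919 in ERaKO OVX femurs, and 3791 to 4948 in WT E2 and 3105 to 3821 in WT OVX femurs, with 4 of 10 markers above the median signal and 0 at a signal of 0. After estrogen in ERaKO, 10 of 11 B lymphocyte markers were lower (median −0.64). Their sums were 5189 to 11133 in ERaKO E2 and 7088 to 27259 in ERaKO OVX femurs. All 14 muscle markers were higher (median 1.13), with sums of 4384 to 790211 in ERaKO E2 and 8838 to 177656 in ERaKO OVX femurs. After estrogen in WT, all 11 B lymphocyte markers were lower (median −0.94), and 13 of 14 muscle markers were lower (median −0.97). The median difference between responses was −0.06 for B lymphocyte and 2.13 for muscle markers. The part of these cell types in the Runx3 values was not tested.

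Of 35 measured coregulators and regulators of Runx proteins, 0 passed in any comparison. For estrogen, 18 were higher in ERaKO (median 0.01) and 12 in WT (median −0.22). Twist1, an inhibitor of Runx2, had −0.98 ± 0.35 in WT (adjusted p = 0.674). Wwp1, a ubiquitin ligase, and Twist1 had the largest differences between responses, of 1.25 ± 0.47 and 1.20 ± 0.49 (adjusted p = 0.927 for both).

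Likeness to the family was ranked over 25791 probe sets with 1 gene symbol and a mean signal above the lowest 30%, as the lower of the r values within mice 1 and 2 and within mice 3 and 4 (8 arrays each), using each gene's probe set of highest mean. Nearest to Runx3 1440275_at were Ptger4, a prostaglandin receptor (r = 0.90 and 0.97), Ccni (0.88 and 0.82) and Lin54 (0.81 and 0.82). Nearest to Runx1 1422864_at were Rbm5 (0.88 and 0.88), Pds5a (0.84 and 0.86) and Atf7ip (0.86 and 0.83). Nearest to Cbfb were Tex264 (0.81 and 0.84), Mier2 (0.85 and 0.81) and Vps41 (0.79 and 0.78). These are the extremes of many correlations on few arrays that share groups and vary in tissue makeup, and are given as a description.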

How the data were processed

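Biotin-labelled RNA of 16 femurs was hybridized to Affymetrix mouse arrays, per the labels' protocols. The authors deposited 1 intensity per probe set and array, on a linear scale, and the submitters' processing notes name GCOS, without a version or background step. Each array's 2% trimmed mean intensity was 500, and no further scaling was done. Of 45101 probe sets, 64 controls were left out. For the tested probe sets, the platform table gave 1 symbol for 34945, several for 932 and none for 9160, and 34741 matched RefSeq by Entrez identifier.

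limma 3.58.1 in R 4.3.3 was fitted across all 45037 probe sets to log2(signal + 16), with 1 mean per group, a variance trend, 12 residual degrees of freedom and no filter, two-sided. The pseudocount of 16 makes folds of low signals too small. Replicate sets were described and not tested. The fit was tested on simulated data. Members, lists, tests and the rule for named genes (every member probe set; of a list with no passing gene, the 2 of largest absolute difference per comparison, of which a part is given; 3 genes of highest likeness) were chosen with earlier results of these data known. Arrays of the same replicate number in different groups had correlations of deviations of 0.0969 to 0.451, median 0.236, against 0.297 for the other number of the same set. Pairing required all 24 to be above 0.1, and 23 were, so the numbers were not taken to pair mice. The highest correlation between 2 arrays was 0.970. Alternatives changed pseudocount, filter, probe set choice, normalization, weights, block, replicate set term, trend and arrays used.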

Additional observations from a re-analysis of the deposited data

Results flagged for a closer look

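The estrogen response of Runx3 1421467_at differed between ERaKO and WT by a log2 difference of −2.63 ± 0.51. It is listed because the unadjusted limma p of that difference, 7.28e-05, was under 0.05. It failed the adjustment over all probe sets (adjusted p = 0.927), and the probe set belongs to a family chosen with these values in view. All 4 ERaKO E2 arrays had lower signals than the 4 ERaKO OVX arrays, whereas the WT E2 and WT OVX arrays overlapped. The other Runx3 probe set, 1440275_at, gave −0.53 ± 0.26 for the same difference. Of 36 groups of 4 arrays examined for 1 array far from the rest, 0 had one.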

How the results depend on the processing

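No probe set of the family passed under any alternative. A change of sign was counted as a reversal only where the value exceeded its standard error: the estrogen difference of Runx1 1422865_at in WT, −0.40 over all arrays, was 0.09 with mice 1 and 2 alone. The replicate set differences moved to 0.20 for Cbfb and 0.11 for Runx3 1440275_at with quantile normalization, and to 0.03 for Runx3 1440275_at with the 3 high spike-in arrays left out, and leaving out 1 array gave 0.04 to 0.22 for that probe set.

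Over all probe sets, the average estrogen difference had 1 passing probe set, of Tex2. It had 2 with 1 probe set per gene, 3 with array weights, 2 with the replicate block, 2 with the replicate set as a term, 4 without the 3 arrays, 0 with mice 1 and 2 alone and 3 with mice 3 and 4 alone, and 1 to 2 when 1 array was left out. For estrogen in ERaKO the count was 0, and it was 2 with array weights, 1 without the 3 arrays and 0 to 1 when 1 array was left out (1 without ERaKO E2 replicate 1). The average genotype difference, at 0, had 1 with array weights, 1 with the replicate set as a term and 0 to 1 when 1 array was left out (1 without ERaKO OVX replicate 4 or ERaKO E2 replicate 1). Estrogen in WT, at 0, had 3 with the replicate set as a term, and the difference between responses, at 0, had 4 with mice 1 and 2 alone. Besides Tex2, the passing probe sets were of Egr1, Lhx1, Dmp1, Ikbke, Igf1, Aldh1a2, Postn, Col3a1, Plcd4, Ptn, Hspa8, Dntt, a predicted gene and an unnamed probe set, named after their values were seen. The causes were not tested. With the replicate block, the estrogen difference of Runx3 1421467_at in ERaKO was −2.13 (adjusted p = 0.251); 6 of 16 arrays were most like one of their own number. That probe set has no value with 1 probe set per gene.

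With 4 mice per group, standard errors of 0.16 to 0.64 for the family within a genotype limit what could pass, and signals near the bottom of the array have unknown detection.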
